A study of Mus musculus with 6 samples.

Results

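Frmd8, Malat1 and Neat1 are neighbours on mouse chromosome 19, and their rows in the count table are described here across 6 libraries of hippocampal microglia, the resident macrophages of the brain. The rows were taken by symbol, 3 of the 54590 in the table. They were chosen by their counts, the row labelled Frmd8 for a large share of all counts and the row labelled Malat1 for few, so the levels below are a description without a test. The mice were 3 weeks old. Both groups had the genotype Tmem119-tdTomato+/-, in which a red fluorescent protein is tied to the microglial gene Tmem119. Of the libraries, 3 carry the label Ctrl and 3 the label FGR, a group the series links to growth restriction in the womb. The sources used here do not describe how growth was restricted or the cells isolated. Each library was made from total RNA of 3000 microglia. No label assigns the libraries of a group to separate animals, so each p-value reflects no more than the variation among these libraries, possibly technical.

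Malat1 is a long RNA that stays in the nucleus, gathers at nuclear speckles, where splicing factors collect, and is among the most abundant non-coding RNAs of nearly all cells. Neat1 is the scaffold RNA of paraspeckles, nuclear bodies built on its long form, and a short form is made from the same start. Frmd8, also named iTAP, is a FERM domain protein that binds the iRhom proteins and holds the sheddase ADAM17, which releases the cytokine TNF, at the cell surface. All these genes are transcribed from the minus strand.

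On GRCm38 (mm10), the build named in the submitters' processing notes, Malat1 spans 5795690 to 5802672 of chromosome 19, Neat1 spans 5824708 to 5845478 and Frmd8 spans 5849702 to 5875274. The starts of Malat1 and Frmd8 are shown because the results turn on where the 5′ end of Malat1 lies against the exons of Frmd8. Both windows are from RefSeq (GRCm38.p6), run 5′ to 3′ on the minus strand, and hold 250 bases before the start in lower case and the first 50 transcribed bases in capitals. The Malat1 window is chr19:5802623-5802922 and the Frmd8 window chr19:5875159-5875458. The RefSeq start of Frmd8 lies inside the span given above, which is from GENCODE M21. Some of its lower-case bases thus fall within that span. The first 60 bases of Neat1 (chr19:5845419-5845478, minus strand, from the GENCODE M21 transcript) mark the end that the short and long forms share; no Neat1 promoter was matched.
Malat1: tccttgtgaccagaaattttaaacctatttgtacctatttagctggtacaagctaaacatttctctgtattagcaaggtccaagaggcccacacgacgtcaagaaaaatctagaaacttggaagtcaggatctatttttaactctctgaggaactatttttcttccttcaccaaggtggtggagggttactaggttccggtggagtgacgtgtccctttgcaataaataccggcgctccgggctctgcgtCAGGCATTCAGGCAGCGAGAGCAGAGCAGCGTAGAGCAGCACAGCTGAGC
Frmd8: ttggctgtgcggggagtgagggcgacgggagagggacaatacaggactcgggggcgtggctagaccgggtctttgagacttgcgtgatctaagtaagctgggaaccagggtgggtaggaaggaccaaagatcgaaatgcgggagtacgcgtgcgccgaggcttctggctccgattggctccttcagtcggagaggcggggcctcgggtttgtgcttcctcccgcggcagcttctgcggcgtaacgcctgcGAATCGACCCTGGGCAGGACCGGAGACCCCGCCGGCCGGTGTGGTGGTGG
Neat1: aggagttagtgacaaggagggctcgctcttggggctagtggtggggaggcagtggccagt
The Malat1 window was 47.0% G and C with 10 CpG pairs. Of the 32851 RefSeq windows, 28.4% had a lower G and C content and 56.5% fewer CpG pairs. The Frmd8 window was 64.7% G and C, above 81.1% of windows, and had 28 CpG pairs, above 85.8% of windows. The transcripts themselves are unlike: of 7018 stretches of 25 bases in Malat1 transcripts, 0 occurred in Frmd8 transcripts on the same strand and 7 on the opposite strand. Neat1 and Frmd8 transcripts shared 0 such stretches on either strand.

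Library totals ran from 1553588 to 11364316 counts, and library 3 of each group was the deepest. Libraries 1 and 2 of a group were near copies: the chi-square of their counts was 2.42 and 2.46 per feature with at least 20 counts, against 5.34 to 16.4 for the other 13 pairs of libraries. Each such pair entered the mean CPM ± SD as 1 sample, which leaves n = 2 in a group. Several row labels went against the labelled cell type. Of 15 microglial marker rows, 8 had under 100 counts over all libraries, none was at 0, and C1qa, which encodes a chain of complement C1q and is a strong microglial marker, had 3, while Sall1, a transcription factor of microglia, had 4292. The summed level of that list was 308 to 334 counts scaled to 1e+06 per library (CPM) in Ctrl and 266 to 327 in FGR, while 8 neuronal rows summed to 1233 to 1406 and 1192 to 1358. Astrocyte rows (6) summed to 319 to 566 and 349 to 501 CPM, oligodendrocyte rows (6) to 66.3 to 127 and 70.6 to 143, and endothelial rows (5) to 323 to 357 and 320 to 372, with none at 0. A single row held many of the counts of some lists, Gad2 with 21921 in the neuronal list, Pecam1 with 8323 in the endothelial list and Mbp with 2672 in the oligodendrocyte list. The part of other cell types in the results was not tested.

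The row labelled Frmd8 held 1375516 counts, 4.40% of all counts and the third most of any row, after the mitochondrial ribosomal RNAs mt-Rnr2 and mt-Rnr1. It held 62.2% of all counts in rows of chromosome 19. The row labelled Malat1 held 276 counts and that labelled Neat1 held 1836. By library, the Frmd8 row took 4.07%, 4.19% and 4.70% of the counts in Ctrl libraries 1, 2 and 3, and 4.06%, 4.15% and 4.40% in FGR libraries 1, 2 and 3. Library 3 was the highest of each group, and the groups overlapped. The 95% Wilson intervals of these shares were narrow, the widest being 4.16% to 4.22% in Ctrl library 2. Intervals cover counting error only, since reads without molecular identifiers are not independent molecules.

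Malat1 stood at 8.41, 10.3 and 11.3 CPM in Ctrl libraries 1, 2 and 3 and at 9.83, 8.41 and 6.34 CPM in FGR libraries 1, 2 and 3. FGR library 3 was the lowest and Ctrl library 3 the highest, and the groups overlapped. These values rest on 15 to 115 counts each, with a 95% Wilson interval of 5.10 to 13.9 CPM in the library of 15 counts. Neat1 stood at 51.1, 52.1 and 63.1 CPM in Ctrl libraries 1, 2 and 3 and at 39.9, 32.5 and 67.5 CPM in FGR libraries 1, 2 and 3. Library 3 was the highest of each group, and the FGR values spread around those of Ctrl. The Ctrl and FGR libraries of each row are set side by side in the plot of CPM by library.

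**Figure D1:**
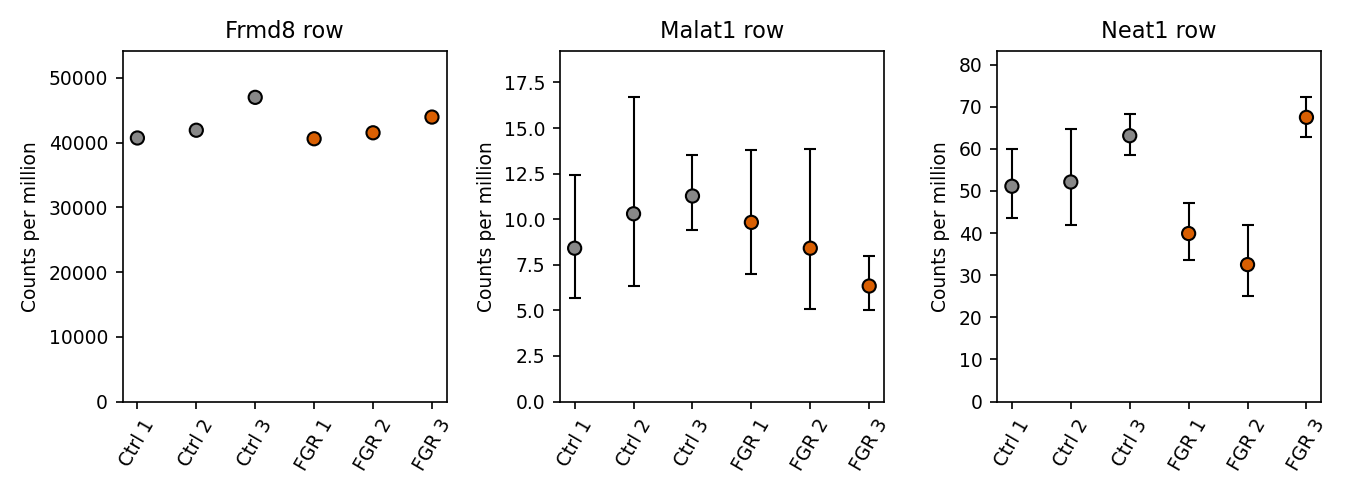
CPM (linear axes from 0) of the rows labelled Frmd8, Malat1 and Neat1 in each library, grey for Ctrl and orange for FGR; bars are 95% Wilson intervals, which cover counting error only and are hidden by the points for Frmd8. Frmd8 lies from 40600 to 46999, while Malat1 lies between 6.34 and 11.3 and Neat1 between 32.5 and 67.5, and Ctrl and FGR overlap in each panel.

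Per kb of annotated exon, over all libraries, the order was Frmd8 at 270664 counts, Neat1 at 88.4 and Malat1 at 39.5. The Frmd8 row was 6848 times the Malat1 row and 3062 times the Neat1 row on this scale. Frmd8 exceeded Neat1 by 2662 to 5219 times in single libraries, so their order did not depend on the library. Neat1 exceeded Malat1 in 6 of 6 libraries, but only by 1.3 to 3.58 times, with the lowest ratio in FGR library 2 and the highest in FGR library 3. Among 1006 rows of chromosome 19 with a count, the median was 32.7 counts per exon kb, and 53.7% of rows lay at or below Malat1 and 65.2% at or below Neat1. The rows labelled Malat1 and Neat1 were thus close to the middle of their chromosome, and the row labelled Frmd8 was at its top.

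Around Malat1, the 3 rows with the most counts per exon kb were Frmd8, Frmd8os and Tigd3. Of 28 rows within 150 kb of the Malat1 span, 19 held at least 100 counts. Frmd8os, an RNA annotated antisense to Frmd8 on the plus strand (5845623 to 5851388), held 51896 counts, the second most on the chromosome, at 84797 per exon kb. Its count was equal to 3.34% to 5.27% of that of the separate Frmd8 row in the 6 libraries. Whether the counting used strand is not stated, so reads of Frmd8 and of its antisense partner cannot be told apart. Tigd3 (5891138 to 5894149, minus strand), a gene derived from a transposase, held 11794 counts at 5460 per exon kb, 61.8 times the row of Neat1 on that scale. The other 14 rows held 120 to 3179 counts per exon kb, with a median of 625. The Malat1 and Neat1 rows were the lowest of the 19.

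**Figure D2:**
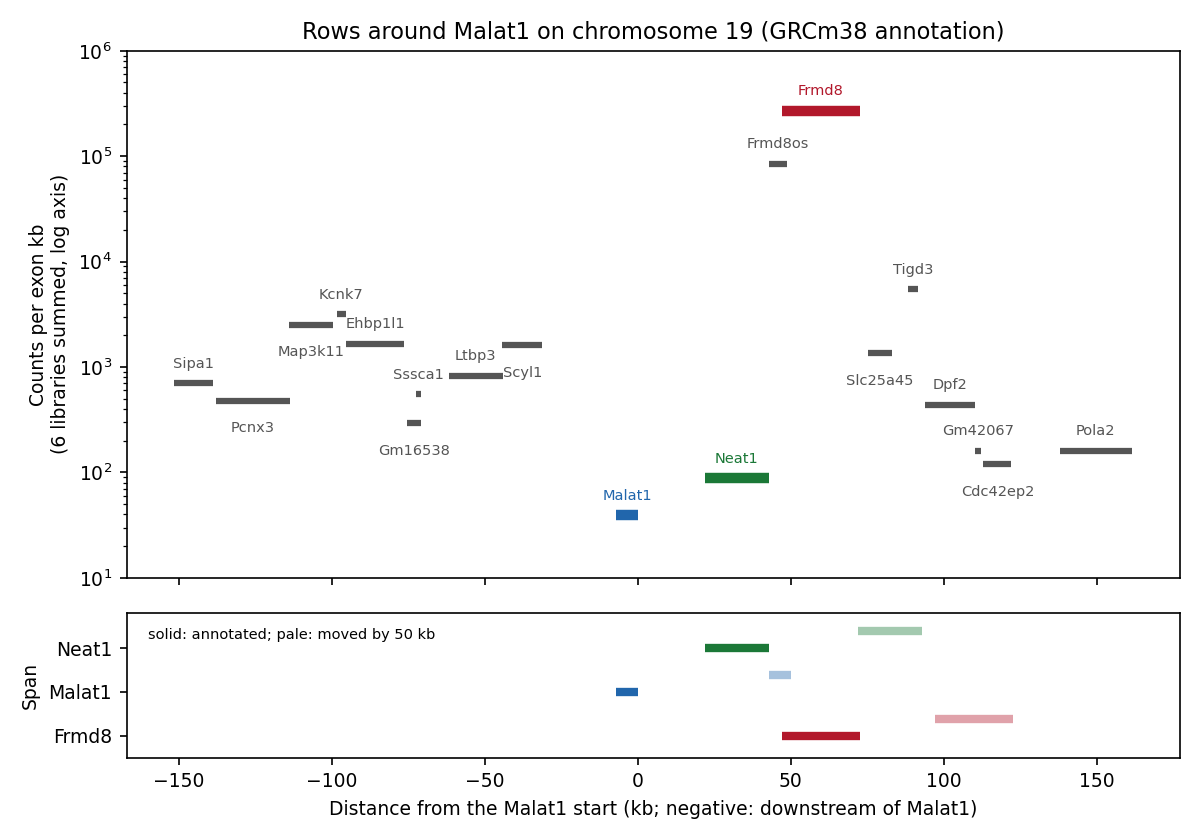
Counts per exon kb (log axis, 6 libraries summed) of the 19 rows with at least 100 counts within 150 kb of Malat1, drawn over their annotated spans by distance from the Malat1 start; the lower panel shows the spans of Frmd8, Malat1 and Neat1 as annotated (solid) and moved by 50 kb (pale). The moved Malat1 lies over Frmd8os and the near end of Frmd8, and the moved Neat1 covers Tigd3. Frmd8os, Frmd8 and Tigd3 are the 3 highest rows of the window, at 84797, 270664 and 5460 counts per exon kb. The Frmd8 row was chosen for its level and Frmd8os overlaps its terminal exon, so these rows are not separate evidence. The moved Neat1 also covers Slc25a45 and reaches Frmd8.

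Whether the labels and the reads of these rows could come from different genome builds was examined by position. As background, Malat1 lies about 50 kb higher on the later mouse build, GRCm39, than on GRCm38; the annotation of that build was not used here, so its exact position was not tested. The offset was instead varied. Frmd8 ends, on its 3′ side, in an exon of 3041 bases (5849702 to 5852742), which is 59.8% of all its exon bases. A shift of 47.03 to 57.05 kb puts part of Malat1 on that exon. At a shift of 50 kb, Malat1 would span 5845690 to 5852672, so that 2971 bases from its 5′ end, the end printed in capitals above, lie within the terminal exon of Frmd8 on the same strand. This is 42.5% of Malat1. The moved Malat1 also lies to 81.6% within Frmd8os on the opposite strand, in part over the same bases, and meets 545 of its 612 exon bases.

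Neat1 moved by the same 50 kb spans 5874708 to 5895478. It then covers the whole of Tigd3, the row with 11794 counts, on the same strand, and reaches 283 exon bases near the 5′ end of Frmd8. It also covers Slc25a45, a mitochondrial carrier gene on the opposite strand, which held 3742 counts. The short form of Neat1 (annotated at 5842307 to 5845476) is at the end that comes over Tigd3. Every shift from 48.67 to 66.43 kb puts all of Tigd3 inside Neat1, and shifts from 48.67 to 57.05 kb meet both conditions. Frmd8 itself, moved by 50 kb, meets the rows of Dpf2, a chromatin remodelling subunit, with 2844 counts and of Cdc42ep2, an effector of the GTPase Cdc42, with 411. The annotated Malat1 span would then be met by Ltbp3, moved from 5740904 to 5758532, which lies on the opposite strand. The table gives 1 number per row, so where the reads of the Frmd8 row lie inside it, and whether they are Malat1 reads, was not tested.

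**Figure D3:**
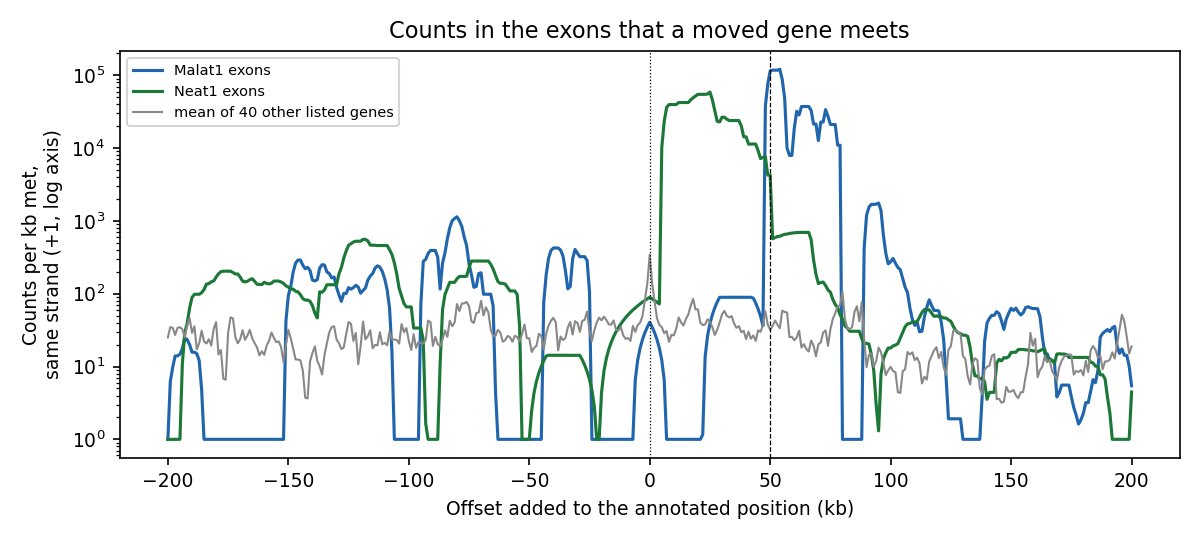
Counts per kb in the annotated exons that a gene meets on its own strand when its position is moved by an offset of -200 to 200 kb (1 added for the log axis), for Malat1 (blue), Neat1 (green) and the mean of 40 other genes of chromosome 19 known to be abundant (grey); dotted and dashed lines mark 0 and 50 kb. Malat1 stays at or above 50% of its highest value only from 49 to 55 kb, Neat1 is highest at 25 kb, where it meets Frmd8, and the mean of the other genes, under this same-strand setting, is highest at 0.

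Over 401 offsets, the exons that Malat1 met held the most counts at 54 kb, at 121281 per kb, and 115157 at 50 kb, which is 2914 times its own row. At 7 offsets, from 49 to 55 kb, the value was at least 50% of the highest. Neat1 met 4256 counts per kb at 50 kb, 48.1 times its own row, but 59043 at 25 kb, where it lies over the terminal exon of Frmd8. Most of its value at 50 kb also comes from the row labelled Frmd8, of which it then meets 283 exon bases. At 51 kb, where Neat1 no longer meets Frmd8, its value was 568. The Malat1 value at 50 kb comes from the row labelled Frmd8, which was chosen for its level. A list of 42 genes of chromosome 19 known to be abundant also peaked at 54 kb as a sum, with 98.4% of that sum from Malat1. Without Malat1 and Neat1 the sum was highest at 0, and so it was for the whole list when the Frmd8 row was left out.

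What the other genes gave depended on the setting. After the data were seen, 32 settings were run, which crossed 4 choices of genes or rows with strand, exons or whole spans, and a sum or a mean of logs. The highest value lay at an offset of 0 in 15 of them, at 49 to 56 kb in 7 and elsewhere, from -200 to 86 kb, in 10. Of the 7, 6 counted exons or spans on either strand. For the 20 other genes within 5 Mb of Malat1, the mean of log2(counts per kb + 1) over whole spans on either strand was highest at 54 kb, at 5.27 against 4.66 at 0. Over exons on the same strand, the same mean was highest at 0, at 5.91 against 2.81 at 50 kb. The other genes thus gave no single offset. The Malat1 value at 50 kb and most of the Neat1 value there give no support of their own, since the Frmd8 row was chosen for its level. At an offset of 0 each gene meets its own exons by construction, while at 50 kb, of the 20 other genes within 5 Mb of Malat1, 9 met no counted exon on their strand and 6 met a higher value than their own row. The 6 include Fth1, the ferritin heavy chain, with 5.77 per kb in its own row and 207 at 50 kb. They also include Cfl1, the actin-severing protein cofilin, with 54.5 and 238. Both were chosen after their values were seen. How many genes were higher at other offsets was not counted. The same-strand exon sum of the 20 nearer genes was 1126 at 50 kb, which ranked 100 of 401 offsets. It was 3149 at 0 and highest at 80 kb, at 3672. Of the 20 genes farther away, 13 met no counted exon and 0 were higher at 50 kb, but their own rows had a median of 235 counts per kb against 48.4 for the nearer genes, so the counts of both sets are not compared; Entpd1, the ATP-degrading ectoenzyme CD39, with 22518 counts, and the translation factor subunit Eif3a, with 16908, had the most counts in their own rows.

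Between FGR and Ctrl microglia, none of the 3 rows passed the test. On the whole table, edgeR's quasi-likelihood test with Benjamini-Hochberg adjustment called 0 of 24149 tested features (0%) at an adjusted p under 0.05. An unadjusted p under 0.05 was reached by 327 features (1.35%), where uniform p-values without any difference would give 1207. The test was thus conservative in this fit, and 0 calls do not measure how alike the groups are. DESeq2 and limma-voom also called 0, with 211 and 196 features at an unadjusted p under 0.05. With the replicate block and near copies summed, edgeR's quasi-likelihood test put 1049 features there. Blocking on the replicate number gave 1 call, Gm36947, and 1 call, Nprl3, when the libraries were kept separate; these names were chosen after their values were seen, and neither is a row described here. With the legacy deviances of edgeR, which were used first and replaced after results had been seen, the count was also 0, but it was 27 (7 higher, 20 lower) without Ctrl library 3, none of them Frmd8, Malat1 or Neat1.

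The Frmd8 row averaged 42507 ± 2045 CPM over FGR samples and 44159 ± 4017 over Ctrl samples (SD, n = 2). Its log2 fold change after TMM scaling was 0.03 (SE 0.28), with an edgeR adjusted p of 0.9998 and a 95% interval of 0.673 to 1.55 in fold. Its sign was negative with library totals (-0.061) and without FGR library 3 (-0.042), and the value was 0.30 without Ctrl library 3. As a share of counts, FGR lay 0.119 percentage points below Ctrl, at 4.20% ± 0.173 against 4.32% ± 0.333 over 3 libraries each. The exact two-sided permutation test gave p = 0.6, where 3 against 3 libraries can give no p under 0.1, and it counts the near copies as separate. With each pair of near copies averaged, the shares were 4.25% ± 0.204 in FGR and 4.42% ± 0.402 in Ctrl (SD, n = 2), a difference of -0.165 points with an exact permutation p of 0.6667, where the smallest p is 0.3333. Neither test uses the replicate numbers. FGR had the lower share in each of the 3 same-numbered pairs, which are not independent, since libraries 1 and 2 are near copies. The Wilson intervals of Ctrl and FGR overlapped for numbers 1 and 2 and were apart for number 3. Within the near copies the log2 ratio of FGR to Ctrl was -0.0074 on library totals and 0.17 after TMM scaling, so its sign there depends on the scaling, and in library 3 it was -0.097 and -0.082.

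For the Malat1 row the mean was 7.73 ± 1.97 CPM among FGR samples and 10.3 ± 1.36 among Ctrl samples (SD, n = 2). The edgeR log2 fold change was -0.38 (SE 0.44, adjusted p 0.9998). Its 95% interval in fold was 0.399 to 1.47. Without Ctrl library 3 the log2 fold change was 0.0046, and without FGR library 3 it was -0.11. On library totals the log2 ratio was 0.044 in the near copies and -0.83 in library 3, and after TMM scaling 0.22 and -0.82, so the lower mean in FGR came from library 3, with 72 counts in FGR and 115 in Ctrl. The Neat1 row had a mean of 51.9 ± 22.1 CPM among FGR samples and 57.4 ± 8.13 among Ctrl samples. Its edgeR log2 fold change was -0.03 (SE 0.35, adjusted p 0.9998), with a 95% interval of 0.585 to 1.64 in fold. The log2 ratio was -0.46 in the near copies and 0.096 in library 3 on library totals, and -0.29 and 0.11 after TMM scaling, opposite in sign on both scales. Without Ctrl library 3 the fold change of Neat1 was 0.31 and without FGR library 3 it was -0.57. Each of the 3 intervals includes both a fall and a rise, so differences within them were not detectable with these libraries, which does not show that the groups are alike.

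**Figure D4:**
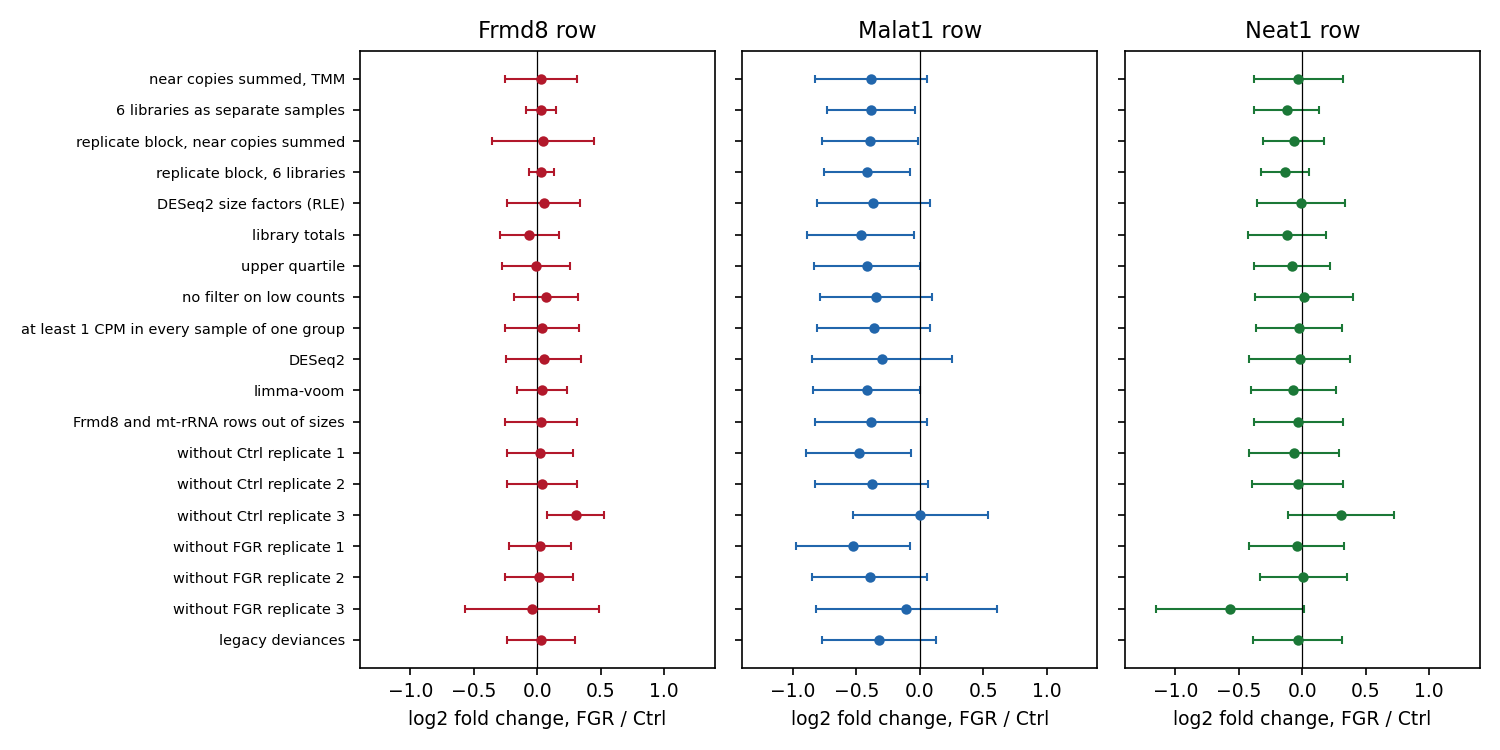
log2 fold changes of FGR over Ctrl (points) with 1 SE (bars) for the rows labelled Frmd8, Malat1 and Neat1 under the fits listed on the left. The values of Frmd8 lie from -0.061 to 0.30, those of Malat1 from -0.53 to 0.0046 and those of Neat1 from -0.57 to 0.31; leaving out Ctrl library 3 moves Frmd8 and Malat1 most, and leaving out FGR library 3 moves Neat1 most.

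The rows near Malat1 gave no call either. Of the 16 other rows with at least 100 counts, 13 had a fold change above 1 and 3 below, with log2 values from -0.38 to 0.46 and a median of 0.20, against -0.03 over all tested features. Frmd8os had 0.21 (SE 0.29) and Tigd3 -0.09 (SE 0.30). In Frmd8os the near copies and library 3 went apart: it stood at 1782, 1678 and 1593 CPM in Ctrl libraries 1, 2 and 3, and at 2141, 2155 and 1470 CPM in FGR. For Tigd3 the values were 453, 541 and 334 CPM in Ctrl and 294, 291 and 413 in FGR. Neither row followed the Frmd8 row across libraries: Frmd8 was 77.5 to 143 times Tigd3, lowest in Ctrl library 2 and highest in FGR library 2. Of the 16 rows, 4 did not overlap between groups, where 10.3% of all tested features did not.

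Genes that work with these 3 were read by their labels, as lists, and 0 of the members passed the test over all features. Of 15 tested rows of nuclear and other long non-coding RNAs, Malat1 and Neat1 included, 5 were higher and 10 lower in FGR, with a median log2 fold change of -0.04. The smallest p in it was that of Xist, the RNA that silences an X chromosome, at -1.24 (SE 0.60), from 132 counts in all. Pvt1 followed at -0.67 (SE 0.50) and Tug1 at 0.42 (SE 0.32). Paraspeckle proteins, which bind Neat1, had 9 of 18 tested rows higher and 9 lower, with a median of 0.04. Sfpq, a paraspeckle core protein, stood at -0.76 (SE 0.44), the splicing factor Hnrnpm at 1.37 (SE 0.79) and the remodelling ATPase Smarca4 at 0.48 (SE 0.38).

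Nuclear speckle proteins, which share their compartment with Malat1, had 13 of 19 tested rows higher and 6 lower, with a median of 0.11. Srrm1, a splicing coactivator, stood at 1.44 (SE 0.72) from 83 counts, Srsf11 at -0.78 (SE 0.61) and Rnps1 at 0.43 (SE 0.38). Of the list of the iRhom and ADAM17 sheddase, which holds Frmd8, 6 of 11 tested rows were higher and 5 lower, with a median of 0.03. That median is the value of the Frmd8 row itself. The related sheddase Adam10 stood at -0.53 (SE 0.36), Tnf at 0.54 (SE 0.37) and the iRhom gene Rhbdf2 at -0.95 (SE 0.84), from 55 counts. The groups did not overlap for 1 of the non-coding RNA rows, 2 of the paraspeckle rows, 0 of the speckle rows and 1 of the sheddase rows, against 10.3% of all features.

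The features whose CPM most resembled each row were found by Pearson's r of log2(CPM + 1) over the 6 libraries, among the 9279 features that averaged 10 CPM or more. For Frmd8 these were Gm33609 (r = 0.995), 9430092D12Rik (0.984) and Snx29 (0.983). For Malat1 they were Abcc8 (0.977), Gm47603 (0.973) and Map4k4 (0.972), and for Neat1 they were Amn1 (0.993) and Ap2b1 (0.993). An r above 0.95 was reached by 64 features for Frmd8, 6 for Malat1 and 71 for Neat1. The 6 points hold 2 pairs of near copies and share the difference in depth between library 3 and the rest, so these values describe the libraries and carry no p.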

How the data were processed

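RNA of hippocampal microglia was measured in 3 Ctrl and 3 FGR libraries, grouped by their titles. Per the labels' protocols, the library kit was Takara's SMARTer Stranded Total RNA-Seq v2. The deposited file is a table of raw, whole-number read counts by Ensembl ID. The submitters' processing notes name HTSeq 2.0.3, Bowtie2 2.4.5, DESeq2 1.32.0, Trim Galore 0.6.5, SAMtools 1.3.1 and mm10; their roles, the annotation and the strand setting are not stated there. Every column was mapped to a sample.

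Symbols matched 53620 of 54590 IDs. Positions and exons are those of GENCODE M21 on GRCm38, with 1092 of 1395 genes of chromosome 19 found in the table; none was converted to another build. CPM per library use library totals. FGR was compared with Ctrl by edgeR 4.0.16 (quasi-likelihood test, TMM, filterByExpr, robust fits, bias-adjusted deviances) in R 4.3.3 on the whole table, with libraries 1 and 2 of a group summed; SEs were derived from the F statistic. The first runs used legacy deviances. Bias-adjusted deviances replaced them after those results had been seen, to follow an earlier processing of these data, and every edgeR fit is also given with legacy deviances. limma 3.58.1 and DESeq2 1.42.0 were alternatives. In the offset scan, steps were 1 kb, and the counts of a row were spread evenly over its exons. In the settings with whole spans they were spread evenly over its span. The scripts were tested on simulated data. Those for edgeR had large changes and less spread between samples than was fitted here, so they do not measure what these libraries could detect. Other software was matplotlib 3.10.9, scipy 1.17.1, pandas 2.3.3, numpy 2.4.6 and Python 3.11.15.

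The members and lists were chosen with earlier results of these data known. Named genes were the 3 rows, rows within 150 kb of Malat1 with at least 100 counts, the 3 of smallest p in each pathway list, the 3 most alike each row (1 of those for Neat1 is not reported here), and listed genes of chromosome 19; of the last, 4 are given, Fth1 and Cfl1 chosen after their values were seen. Replicate numbers recur in both groups. Deviations from the group mean correlated at 0.216, 0.177 and 0.484 between libraries of number 1, 2 and 3. The numbers were therefore used as a block, but only in alternative fits, and the fit reported has no block. No label says that they pair the samples. In both groups libraries 1 and 2 are near copies and library 3 is the deepest. These correlations cannot tell a pairing from that split. Alternatives were other scalings, filters and tests, a replicate block, each library left out, and other settings of the scan, 32 of them chosen after seeing the data.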

Additional observations from a re-analysis of the deposited data

How the results depend on the processing

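The fold changes of the 3 rows passed no threshold under any of 33 alternatives each, of which 16, the fits with edgeR's legacy deviances, were added after seeing the data. Signs turned for Frmd8 with library totals (-0.061, also with legacy deviances) and upper quartile scaling (-0.0094 with either deviance), and for Neat1 with no filter on low counts (0.012, and 0.0058 with legacy deviances). With each library left out in turn, Frmd8 ranged from -0.042 (without FGR library 3, with either deviance) to 0.30 (without Ctrl library 3), Malat1 from -0.53 (without FGR library 1) to 0.0046 (without Ctrl library 3) and Neat1 from -0.57 (without FGR library 3) to 0.31 (without Ctrl library 3), and Neat1 was 0.0064 without FGR library 2. With legacy deviances and without Ctrl library 3, Malat1 was 0.026 and Neat1 0.30. The lone sample left without a library 3 was assumed to vary like the other group. Library totals put the median of all features at -0.11, against -0.03 with TMM.

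The count of features called was 0 in the fit reported and with each library left out, from 0 to 0. It was 1 with the replicate block, near copies summed (Gm36947, adjusted p 0.0126) and 1 with the replicate block and 6 libraries (Nprl3, adjusted p 0.0249). With legacy deviances both block fits called 0, the fit with no filter called 1 (Gm36947, adjusted p 0.00073) and the fit without Ctrl library 3 called 27, so the count depends on the deviances and on that library; the cause was not tested. Under the block the fold changes were 0.04 and 0.03 for Frmd8, -0.39 and -0.41 for Malat1, and -0.07 and -0.14 for Neat1, and no call on these rows changed. The difference in the share of Frmd8 ranged from -0.243 to 0.0706 percentage points with each library left out, positive without Ctrl library 3.

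The offset at which the listed genes met the most counts was 54 kb over same-strand exons of the whole list. It moved to -196 kb with either strand, 29 kb with whole spans and 0 without Malat1 and Neat1. With either strand the highest value was 129916 counts per kb, against 128025 at 50 kb. Of 401 offsets, 50 kb ranked 2 over same-strand exons, 3 with either strand, 54 with whole spans and 127 without Malat1 and Neat1. It ranked 100 for the 20 other genes within 5 Mb of Malat1 and 83 without the Frmd8 row. In the 32 settings added after seeing the data, the highest value lay at 0 in 15, from 49 to 56 kb in 7 (54 in 4, and 49, 55 and 56 in 1 each), and at -200, -196, 29, 80 or 86 kb in 10. The cause was not tested. Depth limits Malat1 most, at 15 to 115 counts per library.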
